A study of Mus musculus with 12 samples.

Results

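The fatty acid elongases Elovl1, Elovl2, Elovl3, Elovl5 and Elovl6 were followed in mouse liver. They were chosen by name from a table of 48440 genes deposited for each library, and all 5 passed the filter on low counts. Polyadenylated RNA was sequenced in 12 libraries from livers of C57BL/6 males, 8 weeks old per the labels and on a chow diet, with 12 h each of light and dark. The groups were wild type (WT) and transgenic mice with liver-specific overexpression of E4BP4 (TG), each at ZT2 and at ZT14, with 3 libraries per group. ZT counts hours from lights on, so that ZT2 is soon after lights on and ZT14 soon after lights off. The labels name neither the promoter of the transgene nor its founder line. They also do not state that each library is a different animal, and the p-values reflect the spread between samples, which may be partly technical. In bulk liver RNA, fewer cells of a type and less RNA per cell cannot be told apart.

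Elongases of the Elovl family catalyse the condensation of an acyl-CoA with malonyl-CoA in the endoplasmic reticulum. This is the first and rate-limiting step of a cycle that lengthens fatty acids, and a ketoreductase, a dehydratase and an enoyl reductase complete the cycle. Elovl6 turns palmitate into stearate, Elovl1 and Elovl3 act on saturated and monounsaturated chains, and Elovl5 and Elovl2 lengthen polyunsaturated chains on the route to arachidonate and docosahexaenoate. Elovl3 is known in mouse liver as a gene with a strong daily rhythm and higher levels in males, and Elovl6 as a target of the insulin- and feeding-responsive factor SREBP-1c. Nfil3 encodes E4BP4, a transcriptional repressor that competes with the activators DBP, TEF and HLF for D-box elements.

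In the deposited tables Elovl3 (ENSMUSG00000038754) lies on chromosome 19 from 46131897 to 46135307, plus strand, and is the shortest of the 5, at 3411 bp. Elovl6 (ENSMUSG00000041220) is the longest at 106141 bp, on chromosome 3 from 129532355 to 129638495, plus strand. Elovl5 (ENSMUSG00000032349) covers 67156 bp of chromosome 9 from 77917364 to 77984519, plus strand, and Elovl2 (ENSMUSG00000021364) 37911 bp of chromosome 13 from 41182495 to 41220405, minus strand. Elovl1 (ENSMUSG00000006390) covers 4861 bp of chromosome 4 from 118428093 to 118432953, plus strand. The submitters' processing notes name mm10 and GRCm38. Elovl1 overlaps the oppositely oriented Cdc20 by 53 bp, and Elovl6 overlaps the oppositely oriented Gm35986 by 34 bp and holds Gm43072 within its span. These neighbours had at most 43, 141 and 1 reads in any library. No source used here says whether counting used strand, so such reads cannot be told apart.

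RefSeq promoters for GRCm38.p6, each 300 bases from 250 before to 50 after an annotated start, were found for Elovl1, Elovl2, Elovl5 and Elovl6, 6 promoters in all, and not for Elovl3. They were searched on both strands for motifs of factors in this pathway and clock, chosen with earlier results known. The D-box TTANGTAA, the RORE core TAGGTCA and a sterol regulatory element core, TCACNCCAC, had no match in these 6 windows, none of which belongs to Elovl3, and occurred in 2.32%, 2.61% and 1.24% of 32851 promoters. The E-box CACGTG occurred in 7.15% of promoters and matched Elovl5, 161 bases before the start. The nuclear receptor motif AGGTCA, which the RORE core contains, occurred in 16.3% and matched Elovl6, 193 bases before the start, and Elovl1, 95 bases before a start. The first 200 bases of the windows of Elovl6 and Elovl5 are shown because these genes changed between the times in opposite directions. Capitals mark the matches, the one in Elovl6 being read on the other strand. They cover chr3:129532136-129532335 and chr9:77917115-77917314, plus strand.
Elovl6: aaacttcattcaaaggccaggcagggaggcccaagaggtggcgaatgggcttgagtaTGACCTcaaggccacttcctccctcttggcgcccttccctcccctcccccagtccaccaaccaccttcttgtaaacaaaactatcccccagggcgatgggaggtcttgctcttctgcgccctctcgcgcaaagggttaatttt
Elovl5: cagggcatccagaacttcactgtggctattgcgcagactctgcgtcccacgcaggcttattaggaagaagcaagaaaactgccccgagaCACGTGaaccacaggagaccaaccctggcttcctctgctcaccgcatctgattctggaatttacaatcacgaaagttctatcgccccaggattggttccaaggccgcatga

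The livers were checked first. Total gene reads ran from 16035121 to 23981021 per library, of which 9.79% to 11.9% lay in introns. Summed levels of 6 hepatocyte markers were 66638 to 80502 CPM, counts scaled to library size,, and the adipocyte markers, of interest because Elovl3 and Elovl6 are also adipose genes, summed to at most 0.362 CPM. Endothelial markers summed to 271 to 273 CPM in TG at ZT2 and 234 to 252 CPM at ZT14. There 2 of 6 fell by edgeR, as did 5.52% of all genes tested. In WT these markers summed to 260 to 281 and 239 to 258 CPM. Stellate and fibroblast markers summed to 167 to 250 CPM in TG and 139 to 192 CPM in WT, with a median log2 difference of 0.38 over both times, and none of the 6 passed. Between genotypes, cholangiocyte markers had a median log2 difference of 0.74 at ZT2 and -0.17 at ZT14. For erythroid markers it was 0.25 and 0.73, and for Kupffer cell and macrophage markers -0.11 and 0.08. None of the markers in these 3 lists passed by genotype. The part of these cell types in the results was not tested. Nfil3 did not overlap between genotypes and was higher in TG, by log2 0.81 at ZT2 (SE 0.21, edgeR quasi-likelihood test, adjusted p = 0.359) and 1.34 at ZT14 (SE 0.21, adjusted p = 0.0306). Its ZT14 call was lost in 8 of the 12 fits that left out 1 library. The libraries TG replicate 2 of ZT2 and TG replicate 3 of ZT14 stood apart on the second principal component (18.2% of variance), at 24.5 and 28.1 against -8.98 to -1.56 for the others. In these 2 libraries 13 female-biased liver genes summed to 53.7 and 50.3 CPM, against 6.15 to 19.1 CPM elsewhere. The sums of 13 male-biased genes were 22390 and 20812 CPM, against 19633 to 28399 CPM elsewhere, but sums weigh abundant genes most. Averaged per gene, the 13 male-biased genes were lowest in these 2 libraries. They lay at log2 -0.55 and -0.53 from the WT mean of the same time, against -0.42 to 0.37 elsewhere. Genotype values of the 5 elongases on total reads at each time are given below with and without them, as are some time, intron and list results. Why these libraries stood apart was not tested. Without them the Nfil3 difference was 0.79 at ZT2 (adjusted p = 0.606), 1.34 at ZT14 (adjusted p = 0.145) and 1.07 over both times (adjusted p = 0.0639, against 0.00942 with them, all by edgeR).

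The make-up of elongase RNA differed by time of day, while protein and activity were not measured. Per exon length of the gene, on the deposited TPM scale, Elovl3 was the most abundant at ZT2. It made up 66.0% of the summed level of the 5 in WT and 55.2% in TG. Each gene has 1 exon length, while Elovl3 has 1 annotated transcript and the other members 2 to 7. The order and shares between genes depend on this length, which need not be that of the transcripts present. At ZT14 Elovl2 led instead, with 40.9% in WT and 52.7% in TG, while Elovl3 made up 19.3% and 5.07%. The level of Elovl2 itself was alike at ZT2 and ZT14, at 234 ± 24.9 and 237 ± 19.1 TPM in WT and 312 ± 124 and 311 ± 47.6 in TG. The summed level was 1341 ± 99.8 TPM (SD, n = 3) in WT and 1406 ± 304 in TG at ZT2, and 585 ± 87.7 and 588 ± 80.7 at ZT14. At ZT2 the order was Elovl3, Elovl2, Elovl5, Elovl1 and Elovl6 in both genotypes, and only Elovl2 and Elovl5 overlapped as neighbours. At ZT14 the order in WT was Elovl2, Elovl5, Elovl3, Elovl6 and Elovl1. There Elovl3 at 117 ± 58.1 TPM overlapped both Elovl5 at 118 ± 28.8 and Elovl6 at 82.8 ± 8.58. In TG at ZT14 Elovl3, at 29.7 ± 9.20 TPM, stood last, and overlapped only Elovl1 at 35.3 ± 0.876. On the deposited RPKM scale Elovl3 and Elovl2 had means of 383 ± 51.5 and 101 ± 10.2 in WT at ZT2. Of the other 2 family members looked up, Elovl4 had 1 read in 1 library and none in the other 11, and Elovl7 had 4 to 19 reads per library.

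**Figure D1:**
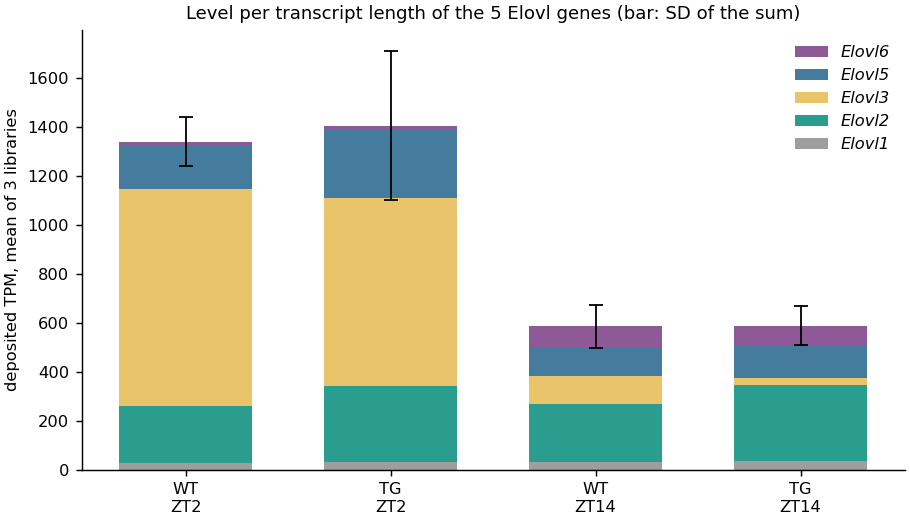
Mean deposited TPM of the 5 Elovl genes, stacked for each group of 3 libraries, with the SD of the sum. The stack is 1341 and 1406 TPM at ZT2 and 585 and 588 TPM at ZT14, and the Elovl3 layer goes from 886 and 768 TPM to 117 and 29.7 TPM.

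Between ZT2 and ZT14 in WT, 2 of the 5 genes passed the test, Elovl3 lower and Elovl6 higher at ZT14, in a contrast in which 9.17% of 15244 genes passed in either direction. In TG 3 of 5 passed, Elovl3 and Elovl5 lower and Elovl6 higher, against 12.2% of genes. Elovl1 and Elovl2 passed at no contrast. Values below are CPM of total gene reads after TMM scaling, and a gene passed where its adjusted p over all genes was below 0.05 by the quasi-likelihood test of edgeR.

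Elovl3, which makes saturated and monounsaturated very long chains, had 573, 543 and 682 CPM in the 3 WT libraries at ZT2 and 34.1, 88.3 and 111 at ZT14. In TG it had 460, 545 and 511 CPM at ZT2 and 11.9, 22.7 and 23.8 at ZT14. Every ZT2 library was thus above every ZT14 library, and the highest of the 12 stood 57.5-fold above the lowest. The fall by ZT14 was 7.69-fold in WT (log2 fold change -2.94, SE 0.36, adjusted p = 0.000372 by edgeR) and 25.9-fold in TG (-4.70, SE 0.39, adjusted p = 2.1e-05). Without 1 library the log2 fold change stayed between -3.29 and -2.58 in WT and between -4.87 and -4.44 in TG, and it passed in each of those fits.

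Elovl6, which extends palmitate to stearate, moved the other way. It had 69.2, 64.2 and 37.7 CPM in WT at ZT2 and 265, 271 and 223 at ZT14. In TG it had 71.5, 43.9 and 71.0 CPM at ZT2 and 200 to 251 at ZT14, so that the times did not overlap in either genotype. The rise was 4.43-fold in WT (log2 fold change 2.15, SE 0.23, adjusted p = 0.000137 by edgeR) and 3.61-fold in TG (1.85, SE 0.22, adjusted p = 0.000305). Without the 2 libraries that stood apart, the TG change was 1.55 (adjusted p = 0.00299 by edgeR).

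Elovl5, the elongase of medium-length polyunsaturated chains, had 260, 374 and 219 CPM in WT at ZT2 and 155, 225 and 193 at ZT14, so the times overlapped. In TG it had 333, 527 and 424 CPM at ZT2 and 185, 195 and 228 at ZT14, with no overlap. It fell 2.11-fold in TG (log2 fold change -1.08, SE 0.21, adjusted p = 0.00598 by edgeR). In WT the change of -0.57 (log2, SE 0.21) had an adjusted p of 0.116 by edgeR and 0.0493 by DESeq2, and the difference between the genotypes in this change, -0.51 (SE 0.29, adjusted p = 0.888), did not pass.

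Elovl2, which lengthens polyunsaturated chains towards docosahexaenoate, varied little by time. In WT it had 399, 451 and 374 CPM at ZT2 and 392, 405 and 375 at ZT14. In TG it had 435, 726 and 415 CPM at ZT2 and 493, 444 and 549 at ZT14. The log2 fold change by time was -0.06 in WT (SE 0.18, adjusted p = 0.887) and -0.09 in TG (SE 0.18, adjusted p = 0.811, both by edgeR). The high value of 726 CPM belongs to a library that stood apart, and without both such libraries the TG change was 0.12 (adjusted p = 0.547 by edgeR).

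Elovl1, which makes very long saturated chains for sphingolipids, was the steadiest of the 5, its highest library being 1.31-fold above its lowest. WT libraries had 34.4, 32.7 and 36.3 CPM at ZT2 and 39.6, 33.6 and 40.6 at ZT14. TG libraries had 40.2, 36.2 and 38.0 CPM at ZT2 and 40.9, 42.8 and 40.8 at ZT14. The log2 fold change by time was 0.14 in WT (SE 0.08, adjusted p = 0.369) and 0.12 in TG (SE 0.08, adjusted p = 0.392, both by edgeR).

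**Figure D2:**
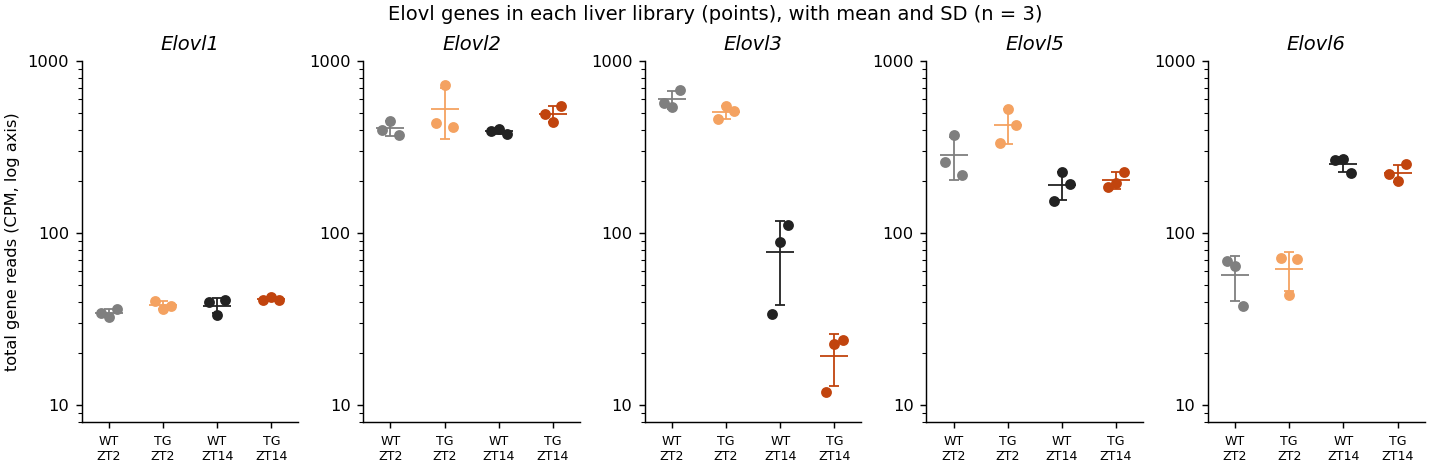
Total gene reads of the 5 Elovl genes in CPM on a log axis, 1 point per library, with the mean and SD of each group of 3. Elovl3 lies between 460 and 682 CPM at ZT2 and between 11.9 and 111 CPM at ZT14, and Elovl6 between 37.7 and 71.5 CPM and between 200 and 271 CPM.

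Between TG and WT no member passed at ZT2 (0.0722% of genes passed), at ZT14 (0.0853%), or over both times (0.144%), by edgeR. At an unadjusted p below 0.05 there were 1, 1 and 4 of the 5, and 1153, 1053 and 1344 of the 15244 genes. DESeq2 called 0, 1 and 1, in both cases Elovl3, and limma-voom called none in any of them.

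The gene nearest to the threshold was Elovl3 at ZT14. The 3 TG libraries, at 11.9 to 23.8 CPM, lay below the 3 WT libraries at 34.1 to 111, with means of 19.4 ± 6.59 and 77.9 ± 39.7 CPM. The log2 fold change of -2.00 (SE 0.35) had an adjusted p of 0.0843 by edgeR, 0.000909 by DESeq2 and 0.145 by limma-voom. Over the alternatives the adjusted p ran from 0.000159 to 0.385. Without WT at ZT14 replicate 1, the lowest WT library, it was -2.36 (adjusted p = 0.00306 by edgeR). Without the 2 libraries that stood apart it was -2.18 (adjusted p = 0.267 by edgeR). At ZT2 the groups overlapped, at 505 ± 42.9 CPM (TG) and 599 ± 73.1 CPM (WT), where the log2 fold change of -0.25 (SE 0.33) had an adjusted p of 0.910 by edgeR. The time change in TG less that in WT was -1.75 (SE 0.48, unadjusted p = 0.00322, adjusted p = 0.687 by edgeR), and no member passed this test by edgeR, DESeq2 or limma-voom (0.00656% of genes passed by edgeR, and 1 of the 5 and 912 of all genes had an unadjusted p below 0.05). Without the 2 libraries that stood apart this value was -1.87, and that at ZT2 was -0.30.

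Elovl2 and Elovl5 were higher on average in TG, by values that did not pass. For Elovl2 the means were 525 ± 174 CPM in TG and 408 ± 39.1 in WT at ZT2, and 495 ± 52.6 and 391 ± 15 at ZT14, where the groups did not overlap. Over both times its log2 fold change of 0.35 (SE 0.13) had an adjusted p of 0.480 by edgeR, and it was 0.16 without the 2 libraries that stood apart, which hold its highest levels at each time, 726 and 549 CPM. For Elovl5 the means at ZT2 were 428 ± 97.1 CPM in TG and 284 ± 80.1 in WT (log2 fold change 0.59, SE 0.21, adjusted p = 0.596 by edgeR), and 0.42 without those libraries. For Elovl6 the change was 0.12 at ZT2 (SE 0.22) and -0.17 at ZT14 (SE 0.22), and 0.32 and -0.27 without those libraries. For Elovl1 it was 0.14 and 0.13 (SE 0.08 each), and 0.18 and 0.14 without them. The Elovl2 change was 0.36 at ZT2 and 0.34 at ZT14 (SE 0.18 each), and 0.061 and 0.26 without them, and that of Elovl5 at ZT14 0.09 (SE 0.21) and -0.012. Among the 2 libraries that stood apart, Elovl3 was not low, at 545 and 23.8 CPM the highest TG value at either time.

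**Figure D3:**
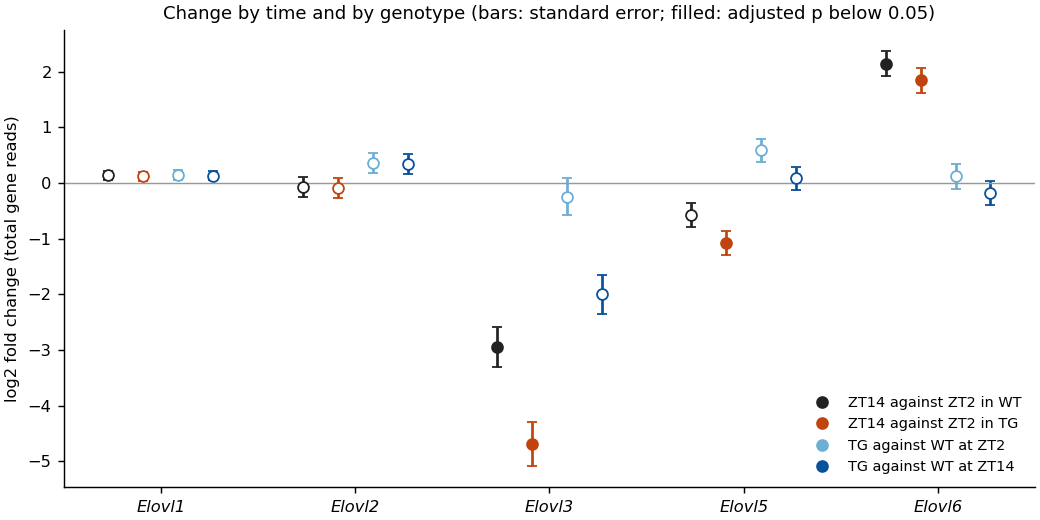
Log2 fold changes of the 5 genes on total gene reads for each time and genotype contrast, with the standard error, filled where the adjusted p was below 0.05. The 5 filled points are all time changes, from -4.70 for Elovl3 in TG to 2.15 for Elovl6 in WT.

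Exon and intron reads were then tested apart. Intron reads of polyadenylated RNA can come from transcripts not yet spliced, but also from unannotated exons or priming within introns, and the tables give only their sum per gene. On exon reads the counts of members were as on total reads. They were 2 of 5 by time in WT (11.1% of genes passed) and 3 of 5 in TG (13.5%), and none by genotype at ZT2 (0.0683%), at ZT14 (0.091%), over both times (0.174%) or for the difference of the time changes (0.00758%). Unadjusted p-values below 0.05 numbered 1, 1, 4 and 1 in these 4, and 1009, 1063, 1278 and 821 among 13185 genes. On intron reads 1 of 5 passed by time in WT (1.93% of genes) and 2 of 5 in TG (5.64%). None passed by genotype at ZT2 (0.0242%), ZT14 (0.0323%) or over both times (0.0323%), or for the difference of the time changes (0.0162%), where 3, 2, 3 and 2 of the 5 had an unadjusted p below 0.05 by edgeR, as did 1254, 602, 1090 and 773 of 12380 genes. Neither DESeq2 nor limma-voom was run on exon or intron reads.

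In WT the intron and exon reads of Elovl5 parted. Its exon reads were 5400, 5831 and 4100 at ZT2 and 3132, 4948 and 3932 at ZT14, while its intron reads were 130, 71 and 134 at ZT2 and 273, 332 and 565 at ZT14. Every ZT14 library thus had more intron reads than any ZT2 library, while exon reads overlapped, with a lower mean at ZT14. Scaled, intron reads rose from 56.4 ± 12.4 to 156 ± 63.5 CPM (log2 fold change 1.46, SE 0.34, adjusted p = 0.0399 by edgeR), while the exon change was -0.68 (SE 0.22, adjusted p = 0.0702). The exon change passed without the 2 libraries that stood apart (adjusted p = 0.0496), without WT replicate 3 of ZT2 (0.0412) and without WT replicate 2 of ZT14 (0.0495, all by edgeR). The intron change less the exon change was 2.04 (SE 0.37, adjusted p = 0.00923 by edgeR), and Elovl5 was the 1 of 5 that passed this test, as did 0.946% of 10782 genes.

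Both Elovl5 results in WT depend on single libraries. The intron call was lost in 8 of the 12 fits that left out 1 library, with adjusted p up to 0.151 without WT at ZT14 replicate 3, the library with 565 intron reads. The difference between intron and exon change lost its call without WT at ZT14 replicate 1 (2.04, adjusted p = 0.0621) or replicate 3 (1.70, adjusted p = 0.0506 by edgeR). In TG, Elovl5 intron reads were 159, 226 and 332 at ZT2 and 171, 248 and 458 at ZT14, and overlapped. There the intron change less the exon change was 0.93 (SE 0.36, adjusted p = 0.206 by edgeR), and it was less than in WT by 1.11 on the log2 scale (adjusted p = 0.886), a difference that did not pass.

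Elovl3 intron reads fell in TG, by less than its exon reads. They were 138, 178 and 252 at ZT2 and 11, 27 and 62 at ZT14, a fall of 7.63-fold (log2 fold change -2.93, SE 0.61, adjusted p = 0.0125 by edgeR), beside an exon change of -4.78 (SE 0.39). In WT they were 227, 183 and 178 at ZT2 and 34, 63 and 248 at ZT14. Scaled, ZT14 replicate 3 had 101 CPM, within the range of the ZT2 libraries, 82.3 to 114 CPM. The log2 fold change in WT was -1.14 (SE 0.54, adjusted p = 0.334 by edgeR), and without that ZT14 library it was -2.43 (adjusted p = 0.0143). The intron change less the exon change was 1.75 in TG (SE 0.44, adjusted p = 0.039 by edgeR), where 2.6% of genes and 1 of the 5 members passed, and 1.58 in WT (SE 0.40, adjusted p = 0.0706). The TG call was lost in 7 of the 12 fits that left out 1 library, and without the 2 libraries that stood apart the value was 1.11 (adjusted p = 0.426 by edgeR).

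Elovl6 intron reads rose in TG, as its exon reads did. They were 80, 82 and 139 at ZT2 and 370, 529 and 358 at ZT14 (log2 fold change 1.66, SE 0.41, adjusted p = 0.0298 by edgeR), a call lost without the 2 libraries that stood apart (1.64, adjusted p = 0.118). It was also lost in 5 of the 12 fits without 1 library, those that left out a TG library of ZT2 or TG replicate 1 or 2 of ZT14. In WT the scaled values were 131, 137 and 35.2 CPM at ZT2 and 199.8, 368 and 211 CPM at ZT14 (log2 fold change 1.37, SE 0.40, adjusted p = 0.0963 by edgeR), with no overlap. Introns held 16.9% ± 6.16 of Elovl6 reads in WT at ZT2, more than for any other member in that group, the next being Elovl1 at 4.59% ± 0.652. In TG at ZT2 introns held 9.07% ± 2.27 of Elovl6 reads.

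Scaled intron reads of Elovl2 were higher in TG without overlap at each time, but passed at neither. The log2 difference was 0.64 at ZT2 (SE 0.22, adjusted p = 0.396) and 0.50 at ZT14 (SE 0.22, adjusted p = 0.992, both by edgeR). The share of all genes without overlap is not given. The Elovl2 values were 111, 112 and 99.4 CPM in TG against 63.6, 95.1 and 49.5 in WT at ZT2. At ZT14 they were 108, 88.9 and 106 against 74.7, 55.5 and 84.0. Over both times the difference was 0.57 on the log2 scale (SE 0.16, unadjusted p = 0.00262, adjusted p = 0.365 by edgeR), which did not pass. Without the 2 libraries that stood apart it was 0.53 (adjusted p = 0.505). Elovl5 intron reads were also higher in TG at ZT2, with no overlap (1.10, SE 0.34, adjusted p = 0.322 by edgeR). At ZT14 they overlapped (-0.50, SE 0.33). Over both times intron reads were lower in TG for Elovl6 (-0.83, SE 0.28, adjusted p = 0.462) and Elovl3 (-0.97, SE 0.40, adjusted p = 0.527, both by edgeR). These overlapped between the genotypes at each time. Elovl1 had 20 to 73 intron reads per library, and its intron change by time was 0.47 in WT (SE 0.27, adjusted p = 0.452) and 0.75 in TG (SE 0.28, adjusted p = 0.129, both by edgeR).

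**Figure D4:**
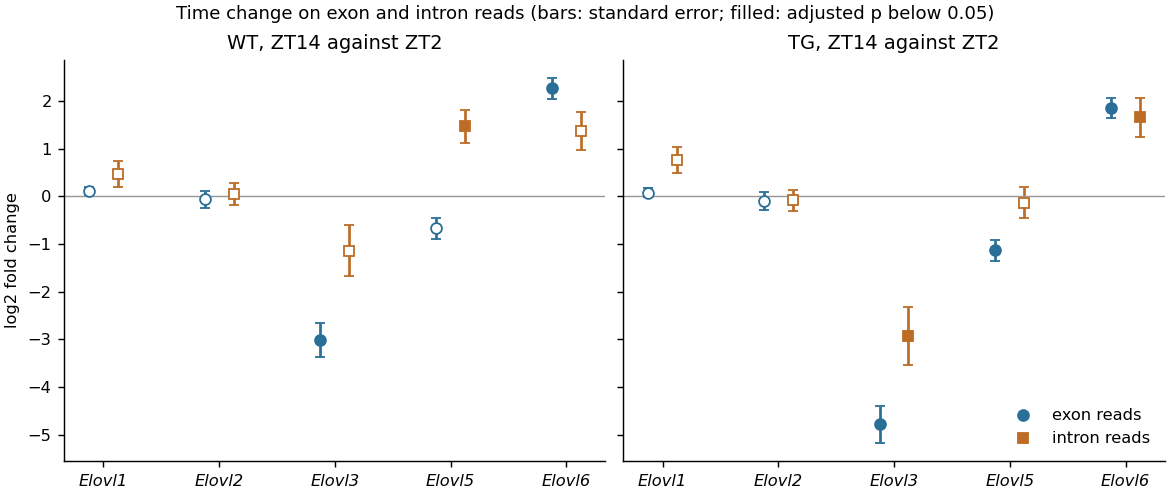
Log2 fold change from ZT2 to ZT14 on exon reads (circles) and intron reads (squares) in WT and TG, with the standard error, filled where the adjusted p was below 0.05. Elovl5 in WT has an intron change of 1.46 and an exon change of -0.68, and Elovl3 in TG has an intron change of -2.93 and an exon change of -4.78.

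Genes whose profile over the 12 libraries was most like each member were taken by Pearson's r of log2 CPM among 9320 genes, as a description in which the time of day is shared by all points. For Elovl6 they were Thrsp (r = 0.977), a lipogenic protein of the liver known to respond to thyroid hormone, Noa1 (0.975) and Homer2 (0.975). For Elovl3 they were Dyrk1b (0.978), Tymp (0.977) and Wwox (0.977), for Elovl5 Rfc5 (0.939), Qdpr (0.938) and Btg1 (0.930), for Elovl2 Gas2 (0.971), Gaa (0.918) and Xkr6 (0.917), and for Elovl1 Nol12 (0.894), Sugp1 (0.888) and Eftud2 (0.870). Of each group of 3, between 0 and 1 were also among the 3 most like by Spearman's rho. Elovl2, Gas2, Gaa and Xkr6 each had their largest SD in TG at ZT2, the group with the library of 726 CPM for Elovl2 that stood apart. Spearman's rho with Elovl2 was 0.930 for Gas2, 0.888 for Gaa and 0.657 for Xkr6. The part of that library in these values was not tested. Between members, r was -0.889 for Elovl3 and Elovl6, 0.718 for Elovl3 and Elovl5, and 0.522 for Elovl2 and Elovl5.

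The other enzymes of fatty acid handling were taken from 7 lists of 71 genes, of which 66 were tested. By time in WT 24 of them passed and in TG 21. Of all genes, 4.85% rose and 4.32% fell in WT, and 6.70% rose and 5.52% fell in TG, and the list counts below stand beside these shares. By genotype 0 passed at ZT2 and 1, Nfil3, at ZT14 and over both times, by edgeR, the Nfil3 calls being lost without the 2 libraries that stood apart. At an unadjusted p below 0.05 there were 14, 15 and 12 of the 66, beside 1153, 1053 and 1344 of 15244 genes. DESeq2 called 3 at ZT2 (Nfil3, Srebf1 and Abcd2), 2 at ZT14 (Nfil3 and Lpcat3) and 3 over both times (Nfil3, Fads1 and Scd2), and limma-voom 0, 1 and 1. For the difference of the time changes between the genotypes, 0 of the 66 passed by edgeR, 0 by limma-voom and 1 by DESeq2. There 12 of the 66 had an unadjusted p below 0.05 by edgeR, beside 912 of 15244 genes.

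The enzymes that share the elongation cycle with the Elovl proteins moved little. Of 6 tested, 0 passed by time in WT by edgeR (0 also at an unadjusted p below 0.05) and 1 rose in TG, with medians of 0.08 and -0.00342 beside 0.01 for all genes in both. Tecr, the enoyl reductase of the cycle, had 151 ± 8.42 CPM at ZT2 and 171 ± 9.75 at ZT14 in WT (log2 fold change 0.17, SE 0.08, adjusted p = 0.220 by edgeR). Hacd3, a dehydratase, rose in TG from 140 ± 4.01 to 171 ± 13.1 CPM (0.29, SE 0.09, adjusted p = 0.0448), a call lost in 10 of the 12 fits without 1 library.

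The desaturase list held Fads1 and Fads2, which act in turn with Elovl5 and Elovl2 on polyunsaturated chains, beside other desaturases. Some genes of the list rose by ZT14. Of 6 tested, 3 rose and none fell in WT, with a median of 0.51, and 2 rose in TG, with a median of 0.24. Fads2, the first desaturase of the pathway, rose from 212 ± 20.7 to 359 ± 15.5 CPM in WT (log2 fold change 0.76, SE 0.15, adjusted p = 0.00836 by edgeR) and by 0.90 in TG (SE 0.15, adjusted p = 0.00269). Fads1 rose by 0.48 in WT (SE 0.13, adjusted p = 0.0418) and 0.59 in TG (SE 0.13, adjusted p = 0.0132). Fads6 rose by 0.33 in WT (SE 0.09, adjusted p = 0.0333). The calls of Fads1 and Fads6 in WT were each lost in 7 of the 12 fits without 1 library, and that of Fads1 in TG in 1.

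The list of fatty acid synthesis and of the supply of malonyl-CoA and acyl-CoA had 12 genes tested. Of these, 7 rose and none fell in WT, with a median of 0.80, and 3 rose and 1 fell in TG, with a median of 0.38. Fasn, fatty acid synthase, rose 6.81-fold in WT, from 264 ± 104 to 1798 ± 264 CPM (log2 fold change 2.77, SE 0.31, adjusted p = 0.00023 by edgeR), and 3.39-fold in TG (1.76, SE 0.30, adjusted p = 0.0029). Acaca, the carboxylase that makes malonyl-CoA, rose 2.14-fold in WT (adjusted p = 0.00029 by edgeR) and 1.47-fold in TG (adjusted p = 0.0156). Acly, which makes acetyl-CoA from citrate, rose 2.72-fold in WT (adjusted p = 0.00115) and had a log2 value of 0.54 in TG (SE 0.21), which did not pass (adjusted p = 0.114). Acsl3, an acyl-CoA synthetase, rose 1.99-fold in WT (adjusted p = 0.00244), Acsl4 rose by log2 0.57 in WT and 0.66 in TG, and Acsl5 fell by 0.33 in TG (adjusted p = 0.0402, all by edgeR). Without 1 library the call of Acsl5 in TG was lost in 8 of the 12 fits, that of Acsl4 in WT in 4 and that of Acaca in TG in 2. Without the 2 libraries that stood apart, 1 of the 12 passed in TG in place of 4. The time change in TG less that in WT had a median of -0.58 over the 12 genes. By edgeR 0 of the 12 passed for this difference, and 6 had an unadjusted p below 0.05.

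Among regulators, 7 rose and 4 fell of 18 tested in WT, with a median of 0.20, and likewise 7 and 4 in TG, with a median of 0.25. Srebf1, which encodes SREBP-1c, rose 3.95-fold in WT, from 185 ± 22.6 to 730 ± 118 CPM (adjusted p = 0.000135 by edgeR), and 2.27-fold in TG (adjusted p = 0.00283). Thrsp rose 18.8-fold in WT (adjusted p = 8.48e-05) and 6.17-fold in TG (adjusted p = 0.00117). Insig2, which holds SREBP in the endoplasmic reticulum, fell 3.18-fold in WT and 3.56-fold in TG (adjusted p = 0.00026 and 0.000124). Tef and Dbp, D-box activators, rose 4.16-fold and 17.4-fold in TG, and 3.31-fold and 5.23-fold in WT (adjusted p at most 0.00698 by edgeR).

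The lists of ceramide synthesis, peroxisomal handling and acyltransferases held few changes. Of 8 genes of ceramide synthesis, Ugcg, glucosylceramide synthase, fell by log2 0.48 in WT (SE 0.11, adjusted p = 0.0147 by edgeR), none rose, and none passed in TG, where 1 had an unadjusted p below 0.05. Of 10 genes of peroxisomal handling, Acaa1a, a peroxisomal thiolase, rose by 0.50 in WT (SE 0.13, adjusted p = 0.0297) and 0.53 in TG (SE 0.13, adjusted p = 0.0187), and no other passed. Its call was lost in 6 of the 12 fits without 1 library in WT, each time a WT library, and in 2 in TG. Of 6 acyltransferases, Lpgat1 rose by 0.43 in WT (SE 0.10, adjusted p = 0.0176) and 0.63 in TG (SE 0.10, adjusted p = 0.00174), and Lpcat3, which places polyunsaturated chains in phospholipids, fell by 0.34 in TG (SE 0.09, adjusted p = 0.0238, all by edgeR). Without 1 library the calls of Ugcg and Lpgat1 in WT were each lost in 3 of the 12 fits and that of Lpcat3 in 4.

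**Figure D5:**
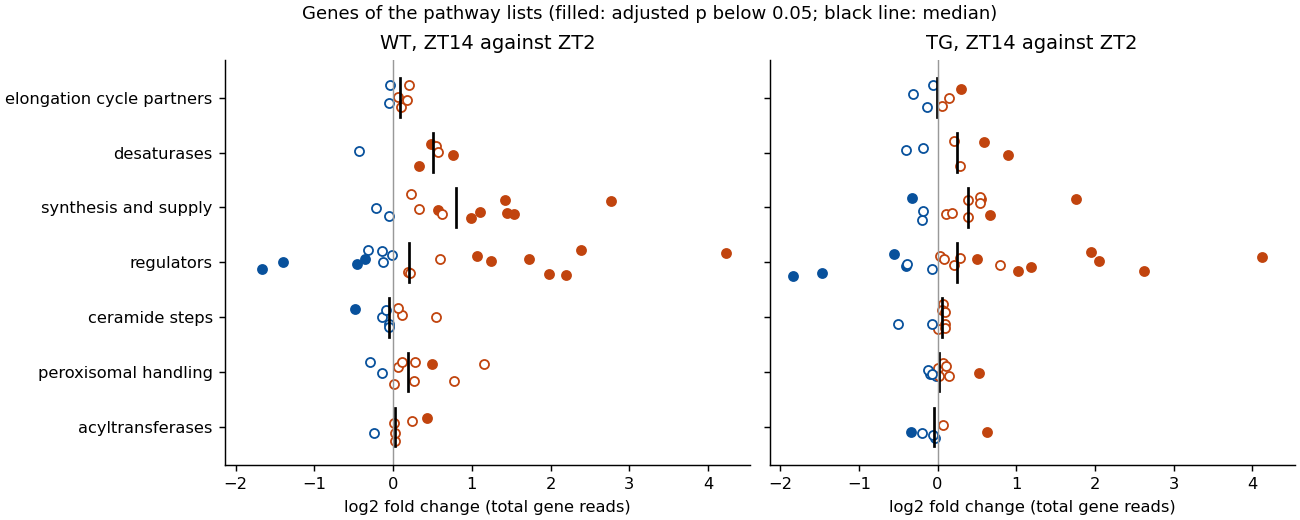
Log2 fold change from ZT2 to ZT14 of each tested gene of 7 pathway lists in WT and TG, 1 point per gene, filled where the adjusted p was below 0.05, with the list's median as a black line. The list of synthesis and supply has a median of 0.80 in WT and 0.38 in TG, and the partners of the elongation cycle lie near 0.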

How the data were processed

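Liver poly(A) RNA of 12 libraries was analysed from 1 table per library. Per the file headers, the authors deposited read counts per gene (total, unique, exon, intron and junction reads) with RPKM and TPM values. The deposited TPM and RPKM were used to compare levels between genes, and TPM also to describe levels, sums and shares per group. They were not TMM-scaled and were not tested. The submitters' processing notes name mm10 and GRCm38, and no source used here names the aligner. Total RNA input was 850 ng, per the labels' protocols. Between replicates of a group, chi-square divided by its degrees of freedom was 9.09 to 83.1, and none was merged.

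Counts were tested with edgeR 4.0.16 in R 4.3.3 (filterByExpr with a minimum count of 10 and total of 15, TMM, glmQLFit and glmQLFTest), in 1 model of 4 groups, with Benjamini-Hochberg adjustment over all genes tested. Exon and intron reads had their own fits. Intron less exon change was tested after the data were seen, in 1 edgeR model with library as a block. Alternatives included DESeq2 1.42.0 and limma-voom 3.58.1. The procedure was tested on simulated data. Depth ran from 16035121 to 23981021 gene reads per library. Named list genes were up to 4 per list and contrast among those that passed, by smallest p, or at most 2 where none passed, and genes most like a member needed a mean of 5 CPM and a pseudocount of 0.5. The text names fewer than the rule allows and names the DESeq2 calls outside it. A gene of the regulator list that the rule would name is not reported here. The members, the lists and the motifs were chosen with earlier results of these data known.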

Additional observations from a re-analysis of the deposited data

How the results depend on the processing

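The time calls of Elovl3 and Elovl6 in both genotypes and of Elovl5 in TG on total reads were kept under every alternative run. The intron results rest on 11 to 1033 reads per library and member. Replicate numbers did not pair the samples (correlations of deviations -0.296 to 0.181). With the replicate as a block 1 member passed for TG against WT at ZT14 (Elovl3) on total and on exon reads, Elovl5 passed by time in WT on exon reads (adjusted p = 0.0228 by edgeR), the calls of Nfil3 at ZT14 (adjusted p = 0.0726), Acaa1a and Fads6 in WT and Hacd3 in TG were lost, and the Elovl2 difference of time changes was 0.00833 in place of -0.02. The block left 0 genes called among cycle partners in TG and 0 in the peroxisomal list in WT.

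By genotype 1 member was called at ZT14 and over both times without the filter and with DESeq2, in place of 0. Without the libraries that stood apart, 1 member was called on intron reads by time in TG, and 0 for intron less exon. Without 1 library the members called ranged from 0 to 1 for TG against WT at ZT14 and over both times, on total and exon reads, from 0 to 1 on intron reads by time in WT and from 0 to 2 in TG, and for intron less exon from 0 to 2 in WT and 0 to 1 in TG.

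Changes near 0 turned sign, and the cause was not tested. Without the libraries that stood apart, Elovl5 was -0.012 at ZT14 by genotype, Elovl6 0.027 over both times, Elovl2 0.12 by time in TG (also 0.12 on exon reads) and 0.20 for the difference of time changes, and Elovl6 intron less exon 0.11 in TG. Elovl6 over both times was 0.0020 with library size alone and 0.085 on exon reads, the Elovl2 difference 0.018 with limma-voom, and Acsl5 by time in WT 0.0029 with library size alone. Without 1 library the ranges were as follows. Genotype changes ran from -0.045 to 0.22 for Elovl5 at ZT14, -0.10 to 0.32 for Elovl6 at ZT2 and -0.14 to 0.072 for Elovl6 over both times. Time changes of Elovl2 ran from -0.23 to 0.20 in TG and -0.12 to 0.016 in WT, on exon reads from -0.25 to 0.22 and -0.12 to 0.015, and on intron reads in WT from -0.15 to 0.33. Those of Elovl5 on intron reads in TG ran from -0.54 to 0.12 and those of Acsl5 in WT from -0.10 to 0.019. Differences of time changes ran from -0.17 to 0.28 for Elovl2 and -0.095 to 0.038 for Elovl1. Intron less exon ran from -0.53 to 0.033 for Elovl6 in TG, and for Elovl2 from -0.051 to 0.33 in WT and -0.30 to 0.11 in TG.

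Genes called in the lists moved most with an adjusted p below 0.01, to 7 regulators in each genotype, 1 desaturase in each, 1 gene of synthesis and 1 acyltransferase in TG, and 0 for cycle partners in TG, ceramide and acyltransferases in WT and the peroxisomal list in both. Cycle partners in TG were 2 with RLE size factors, library size alone, exon reads or DESeq2, and 0 without the filter, with only the groups compared or without the libraries that stood apart. Without those libraries 1 gene of synthesis and 1 acyltransferase passed in TG, and 2 acyltransferases in WT. With only the groups compared 1 desaturase passed in TG, 2 ceramide genes in WT and 0 peroxisomal genes in TG. The peroxisomal list in WT had 3 called without the libraries that stood apart, without the filter, with only the groups compared or with DESeq2, and 2 with library size alone or uniquely mapped reads. Without 1 library, calls ranged from 0 to 1 for cycle partners, 1 to 3 for desaturases, 2 to 4 for synthesis, 8 to 12 for regulators, 0 to 1 for the peroxisomal list and 1 to 2 for acyltransferases in TG, and from 1 to 4 for desaturases, 7 to 11 for regulators, 0 to 1 for ceramide, 0 to 2 for the peroxisomal list and 0 to 1 for acyltransferases in WT.

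Over the whole table, counts called ranged over all alternatives from 7 to 56 by genotype at ZT2 (11 as reported), 10 to 51 at ZT14 (13), 12 to 75 over both times (22), 606 to 1705 by time in WT (1398), 757 to 2116 in TG (1862) and 0 to 22 for the difference of time changes (1).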
